A study of Danio rerio with 12 samples.

Results

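How far hearts of the same age differed from each other was measured in zebrafish (Danio rerio) at 4 ages, 6, 12, 24 and 36 months, with 3 libraries at each age. All 12 libraries of the series were used. The genes examined were the 7062 of 50640 listed genes with a mean of at least 5 FPKM over the 12 libraries. A gene very high in a single library can pass this cutoff, so the choice of genes is not free of the spread. FPKM is a read count per kilobase of gene, scaled for the size of the library. For each gene the spread was the standard deviation (SD) of log2(FPKM + 1) over the 3 libraries of an age. It describes variability within an age, and the mean level of each age was removed.

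The heart of an adult fish is a mixture of muscle cells, endocardium and vessels, valve and outflow tissue, epicardium and fibroblasts, blood and resident immune cells. A level measured in bulk RNA follows both the make-up of that mixture and the activity of each cell. Between individuals, housekeeping machinery such as spliceosomes and proteasomes is usually transcribed at steady levels. Immune, stress-induced and clock genes depend on infection, handling and the hour of sampling. Genes of the major histocompatibility complex, which presents peptides to T cells, are also known to differ in sequence and gene content between zebrafish haplotypes.

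Total RNA was taken from hearts with Trizol and sequenced on an Illumina instrument, and fish were kept under standard conditions. The labels give no genotype, strain, sex, collection hour or pooling, and they do not say whether each library is 1 animal, so the p-values below measure only the spread between these libraries. Libraries are named by age and replicate, so that M6_1 is the first library of 6 months. The deposited values corresponded to between 7333060 reads in genes (M36_1) and 11145869 (M12_3). Heart identity was plain in every library from nppa, the atrial natriuretic peptide, at 3120 to 7022 FPKM, cmlc1, a cardiac myosin light chain, at 472.8 to 1489 FPKM, and myh6, the atrial myosin heavy chain, at 658.0 to 3153 FPKM. The ventricular myosin vmhc, the troponin tnnt2a and the titin gene ttn.2 stayed below 1 FPKM in all 12 libraries. Each is overlapped on its strand by a locus without a name, to which its reads could have been given. Other heart muscle genes were lower, with actc1a at 0.372 to 4.59 FPKM and tnni1b at 7.81 to 28.5 FPKM. Myl7 ran from 24.7 FPKM in M12_2 to 190 FPKM. Actc1a, tnni1b and myl7 are overlapped in the same way, but the locus over myl7 is listed at 0.

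Hearts of 6 months were spread more widely than those of the later ages, and the excess was lost when the library M6_1 was left out. The median SD over the 7062 genes was 0.25 at 6 months, 0.18 at 12 months, 0.18 at 24 months and 0.19 at 36 months on the log2 scale. Expressed as a ratio, a typical gene had an SD of 19.2% at 6 months and of 13.2% to 14.2% at the later ages. Counting error was small beside this, since the SD expected from the recovered reads alone had a median of 0.07 at 6, 12 and 24 months and 0.08 at 36 months. An SD of at least 0.5 was taken as wide. Such a spread was seen in 1386 genes at 6 months (19.6%), 734 at 12 months (10.4%), 566 at 24 months (8.01%) and 662 at 36 months (9.37%). With a mean of at least 5 FPKM required in each age, the shares were lower, at 16.78%, 7.563%, 5.76% and 7.041%.

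Pairs of libraries showed where the spread lay. The median absolute log2 difference was 0.35 between M6_1 and M6_2 and 0.34 between M6_1 and M6_3, but 0.19 between M6_2 and M6_3. Within 12 months it was 0.17 between M12_1 and M12_2, 0.23 between M12_1 and M12_3 and 0.24 between M12_2 and M12_3. The 3 pairs of 24 months lay at 0.20, 0.20 and 0.21, and the 3 pairs of 36 months at 0.23, 0.22 and 0.22. M6_1 was thus the library farthest from its age mates, M12_3 stood somewhat apart at 12 months, and the libraries of 24 and of 36 months were about evenly spaced. Genes that differed at least 2-fold numbered 932 and 867 in the pairs with M6_1, against 241 between M6_2 and M6_3 and 179 to 507 in the pairs of the later ages. With M6_1 left out, the median SD of 6 months came to 0.16 on the scale of 3 libraries. In that setting 6 months was the narrowest age and 36 months the widest, but the other ages kept their farthest library. On the same scale 12 months without M12_3 came to 0.15.

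**Figure D1:**
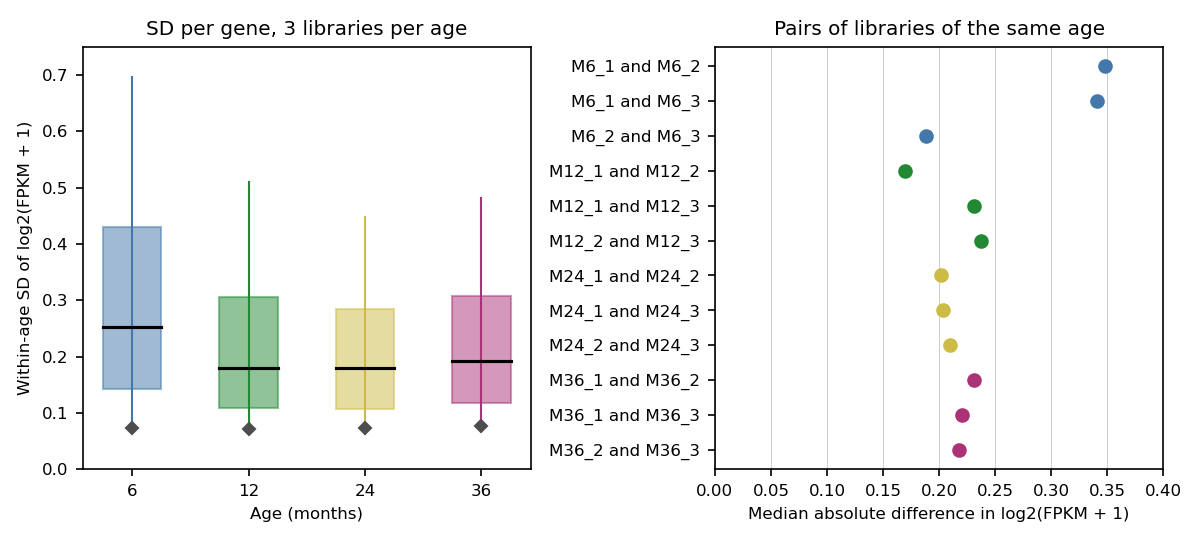
Left, within-age SD of log2(FPKM + 1) per gene by age in months, with a line at the median, a box from the 25th to the 75th percentile, a whisker from the 10th to the 90th percentile and a diamond at the median SD expected from counting error. Right, median absolute difference in log2(FPKM + 1) over 7062 genes for each pair of libraries of the same age, in which the pairs with M6_1 lie at 0.35 and 0.34 and the other pairs between 0.17 and 0.24.

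The distance of each library from the mean of the other libraries of its age gave the same picture. It was 0.33 for M6_1, 0.23 for M6_2 and 0.22 for M6_3, against 0.20, 0.20 and 0.18 for M36_1, M36_2 and M36_3. The mean distance was 0.26 ± 0.06 (SD, n = 3) at 6 months and 0.19 ± 0.01 (SD, n = 3) at 36 months, and the values did not overlap. The 3 distances of an age share libraries, so the values tested were not independent, and those of M6_2 and M6_3 include M6_1. M6_2 and M6_3 differed from each other by a median of 0.19, beside 0.22 to 0.23 in the pairs of 36 months. An exact two-sided permutation test over libraries gave p = 0.1, the smallest p that 3 against 3 allows, so the comparison could not reach 0.05. Without M6_1 the difference of 36 minus 6 months was 0.01 (exact permutation p = 0.6). M6_2 and M6_3 then had the same distance, that from each other, and not a distance from a mean of other libraries. No factor was applied for this, so that difference and its p do not compare the ages on a common scale. M6_1 was the farthest of the 3 libraries of its age in 54.05% of all genes and in 1017 of the 1386 wide genes of 6 months, above the others in 460 and below them in 557. M12_3 held the same place in 468 of the 734 wide genes of 12 months, and M36_3 in 303 of the 662 wide genes of 36 months, beside 45.74% and 32.77% of all genes.

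Gene by gene, few differences in spread between ages could be called with 3 libraries per age. The variance within an age was set against the variance within the other ages, the latter moderated across genes with limma, and p-values received a Benjamini-Hochberg adjustment across the whole table. At 6 months 2 genes (0.0283% of those tested) were wider and 0 (0.0%) narrower at an adjusted p under 0.05. At 12, 24 and 36 months 0 genes (0.0%) were wider and 0 (0.0%) narrower by the same limma-moderated test. Before adjustment, p was under 0.05 for a wider spread in 839 genes at 6 months (11.9%), 161 at 12 months (2.28%), 83 at 24 months (1.18%) and 163 at 36 months (2.31%). A narrower spread had an unadjusted p under 0.05 in 124 genes at 6 months (1.76%), 269 at 12 months (3.81%), 253 at 24 months (3.58%) and 252 at 36 months (3.57%). Of the 839 genes, M6_1 was the farthest library in 700, above the others in 225 and below them in 475. Without M6_1, 0 genes were wider at 6 months at an adjusted p under 0.05 and 137 had an unadjusted p under 0.05. On simulated data with 200 changed genes, the test recovered 52.5% of genes whose SD was raised 6-fold at 6 months and 1% of those raised 3-fold. It called 10 unchanged genes beside the 105 recovered at 6-fold and 2 beside the 2 recovered at 3-fold. The counts therefore cannot speak for moderate differences.

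Both genes that passed the test were near 0 in M6_1 and present in every other library. A locus without a name, on chromosome 16 from 27402448 to 27434710 of the GRCz11 build, had 0.784, 40.9 and 32.8 FPKM in M6_1, M6_2 and M6_3 and 9.31 to 29.6 FPKM in the 9 libraries of later ages (adjusted p = 0.0348, limma-moderated variance ratio). The protein-coding gene si:ch211-243a20.3, on chromosome 1 from 44660095 to 44674627, had 0.291, 41.3 and 22.0 FPKM at 6 months and 2.93 to 6.96 FPKM later (adjusted p = 0.0348). The low values rest on 32 reads and 3 reads in M6_1. With single libraries left out, 0 genes passed at 6 months without M6_1, M12_1, M12_2 or M36_3, 1 without M24_2 or M36_2, 5 without M12_3, 6 without M24_1 and 32 without M6_3.

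Spread depended only weakly on expression level. At 12 months the median SD ran from 0.20 in genes of 5 to 10 FPKM to 0.15 in genes of at least 100 FPKM, and at 24 and 36 months it lay between 0.16 and 0.21 in every class of level. At 6 months, by contrast, the 647 genes of at least 100 FPKM had the widest median, 0.30, although their counting SD was only 0.02. Among those same genes the median absolute difference of M6_2 from M6_3 was 0.15, the smallest of the 4 classes. The spread also differed by kind of gene, with level and length not held equal. Protein-coding genes (5675) had a median SD pooled over the ages of 0.22, loci without a name (1251) of 0.31 and lincRNA genes (54) of 0.36. Processed transcripts (27) had 0.50, antisense RNAs (8) 0.63 and the remaining kinds (47) 0.58. Most genes were wide at no age. Of the 7062 genes, 5067 had an SD under 0.5 at every age, 1149 were wide at 1 age, 461 at 2, 263 at 3 and 122 at all 4.

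Functional groups were described with 50 gene lists, of which 46 had at least 3 members at a mean of 5 FPKM, 873 genes in all. The groups with the widest median SD pooled over the ages were egg and vitellogenin genes (1.61, 4 genes), hepatocyte genes (1.46, 9 genes), skeletal muscle genes (0.66, 5 genes), macrophage genes (0.61, 23 genes), granulocyte genes (0.59, 14 genes), cytokines and chemokines (0.52, 19 genes) and immediate early genes (0.49, 29 genes). The tightest were splicing factors (0.14, 48 genes), proteasome subunits (0.15, 37 genes), cytosolic ribosomal proteins (0.19, 57 genes) and aminoacyl-tRNA synthetases (0.20, 19 genes), beside 0.24 over all genes. Without M6_1 the median was 0.39 for the egg and vitellogenin genes, 0.39 for macrophage genes and 0.39 for granulocyte genes. The widest lists were thus mostly of other tissues and immune cells, and the tightest of RNA processing, protein synthesis and protein turnover. Other lists of the former kinds were narrower, at 0.30 for epidermis and gill genes and 0.27 for multi-copy immune families. The cutoff was a mean over the 12 libraries, which a gene high in few libraries can pass through them alone. It admitted 4 of 28 egg and vitellogenin genes, 9 of 60 hepatocyte genes and 5 of 47 skeletal muscle genes. The high rank of those lists thus follows in part from the cutoff. Cardiomyocyte and sarcomere genes (18) had 0.43, above antigen presentation (0.41) and interferon-stimulated genes (0.37). Of these 18 genes, 7 were overlapped on their strand by a locus without a name. Over all named genes, the 582 so overlapped had a median pooled SD of 0.25 and the other 5229 of 0.22. Wide members made 27.8%, 33.3%, 22.2% and 27.8% of the cardiomyocyte list at 6, 12, 24 and 36 months. The share over all genes was 19.6%, 10.4%, 8.01% and 9.37%. The list medians exceeded the all-gene median in 38 of 46 lists at 6 months, 31 at 12 months, 38 at 24 months and 32 at 36 months.

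**Figure D2:**
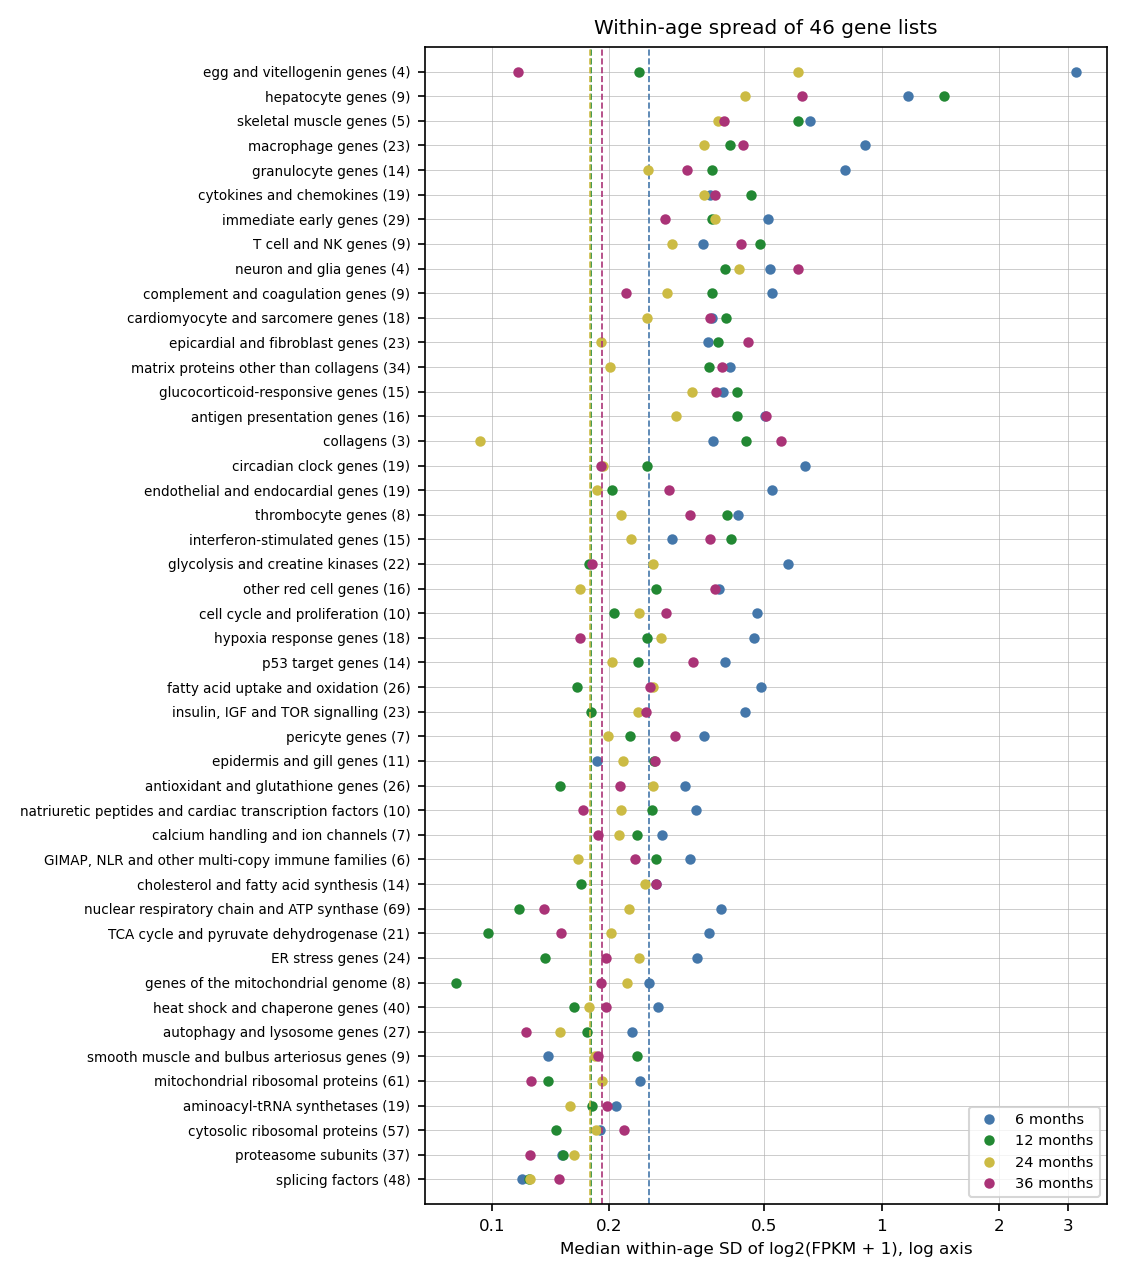
Median within-age SD of log2(FPKM + 1) of the measured members of 46 gene lists (number of members in parentheses), by age, on a log axis, with dashed lines at the median of all 7062 genes at each age. Lists are ordered by their median SD pooled over the ages, from splicing factors (0.14) to egg and vitellogenin genes (1.61), and many metabolic lists are widest at 6 months.

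Macrophage genes were the large group that varied most between hearts of 6 months. All 23 measured members were highest in M6_1, where 33.8% of all genes were, and all 23 had an SD of at least 0.5 at that age, beside 19.6% of all genes. Their median deviation from the age mean was 1.03 in M6_1, -0.47 in M6_2 and -0.57 in M6_3 on the log2 scale. Irf8, a transcription factor that macrophages require, had 78.98, 14.2 and 10.3 FPKM in M6_1, M6_2 and M6_3. Its level in the later libraries ran from 15.0 to 51.3 FPKM, so M6_1 was above all 11 others. Mpeg1.1, a perforin-like gene used as a macrophage marker, had 91.3, 27.5 and 26.0 FPKM at 6 months and 19.8 to 73.5 FPKM later. M6_2 and M6_3 agreed closely in these genes, with a median absolute difference of 0.14 for the list, beside 0.19 over all genes. In bulk tissue, fewer cells of a type and less RNA per cell cannot be told apart. With M6_1 left out the median pooled SD of the list was 0.39 in place of 0.61.

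At later ages the macrophage group was still wider than the average gene, but the odd library differed. It was wide in 8 of 23 members at 12 months, 6 at 24 months and 7 at 36 months, beside 10.4%, 8.01% and 9.37% of all genes. At 36 months 20 of 23 members were lowest in M36_3 (29.5% of all genes) and 17 were highest in M36_2 (26.4%). At 12 months 21 of 23 were lowest in M12_2 (29.2%), and at 24 months 17 were lowest in M24_3 (33.5%). Grn1, a progranulin-like gene, was among the 6 genes with the largest minimum SD over the ages. Its values were 40.7, 1.64 and 4.17 FPKM at 6 months, 10.5, 3.58 and 38.2 at 12 months and 33.1, 84.6 and 23.1 at 36 months. Its smallest SD, at 36 months, was 0.95, and a locus without a name with at most 1.59 FPKM overlaps it.

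Granulocyte genes followed at 6 months, when 13 of 14 members were highest in M6_1 and 9 were wide, beside 33.8% and 19.6% of all genes. Mpx, the myeloperoxidase of neutrophils, had 10.3, 0.348 and 0.572 FPKM at 6 months, 1.89, 2.47 and 3.45 at 12 months, 18.6, 26.7 and 15.1 at 24 months and 13.9, 3.75 and 1.42 at 36 months. Mpx thus differed less between the hearts of 24 months than between those of 36 months, of which the highest exceeded the lowest 9.76-fold. Lyz, a lysozyme of myeloid cells, had 76.3, 12.8 and 10.7 FPKM at 6 months, 133, 316 and 119 at 12 months, 347, 1336 and 781 at 24 months and 686, 216 and 63.0 at 36 months. Both genes were highest in M6_1 at 6 months and in M36_1 at 36 months.

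Antigen presentation genes varied at every age. The median SD of the 16 members was 0.50 at 6 months, 0.43 at 12 months, 0.30 at 24 months and 0.51 at 36 months. Wide members numbered 8, 6, 4 and 8, beside 19.6%, 10.4%, 8.01% and 9.37% of all genes. Of the 16, 13 were highest in M6_1 (33.8% of all genes), 14 in M12_3 (32.2%) and 11 in M36_1 (37.9%). In M36_3 15 were lowest (29.5%). T cell and NK genes (9) were lowest in M36_3 in 6 cases. Ccl34b.4, a chemokine, had 110, 12.9 and 26.5 FPKM at 6 months and 26.8, 14.0 and 157 FPKM at 12 months. At 24 months it had 69.3, 80.0 and 53.5 FPKM, and at 36 months 154, 106 and 50.8 FPKM. Ccl34b.4 was highest in M6_1, M12_3, M24_2 and M36_1 at the respective ages.

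Energy metabolism was the mirror image at 6 months. The 22 measured genes of glycolysis and the creatine kinases had a median SD of 0.58 at 6 months, against 0.18, 0.26 and 0.18 at 12, 24 and 36 months, and 18 of 22 were lowest in M6_1, where 47.8% of all genes were. Ckma, a muscle creatine kinase, had 969.7, 4762 and 4080 FPKM in M6_1, M6_2 and M6_3. In the later libraries it ran from 1962 to 3672 FPKM, so that M6_1 was the lowest of all 12. Gapdh, the glycolytic dehydrogenase often used as a reference gene, had 6766, 21920 and 21520 FPKM at 6 months and 19600 to 20110 FPKM in the 3 libraries of 36 months. Its SD was 0.97 at 6 months and 0.02 at 36 months. The limma-moderated variance ratio gave ckma an adjusted p of 0.0838 at 6 months, above 0.05.

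The nuclear genes of the respiratory chain and ATP synthase shared this pattern with a smaller step. Their 69 measured members had a median SD of 0.39 at 6 months, 0.12 at 12 months, 0.23 at 24 months and 0.14 at 36 months. In M6_1 65 of 69 were lowest, beside 47.8% of all genes, with a median deviation of -0.44. M6_2 and M6_3 differed by a median of 0.11 over the list. The genes also moved together at later ages, though over short distances. At 24 months 56 of 69 were highest in M24_1 and 58 lowest in M24_2, at 12 months 56 were lowest in M12_3, and at 36 months 49 were lowest in M36_1, where 36.9%, 38.7%, 44.3% and 29.7% of all genes held those places. Mdh2, the mitochondrial malate dehydrogenase, had 1415, 3302 and 3247 FPKM at 6 months and 2988, 2925 and 2876 FPKM at 12 months. TCA cycle genes (21) had 18 members lowest in M6_1 and fatty acid uptake and oxidation genes (26) also had 18, beside 47.8% of all genes.

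Clock genes were wider at 6 months than later. Their median SD was 0.64 at 6 months, 0.25 at 12 months and 0.19 at both 24 and 36 months, and 11 of 19 members were wide at 6 months against 3, 2 and 1 later, beside 19.6% of all genes at 6 months and 10.4%, 8.01% and 9.37% later. The median difference over the list was 1.15 between M6_1 and M6_2 and 0.92 between M6_1 and M6_3, but 0.23 between M6_2 and M6_3. Without M6_1 the median pooled SD of the list was 0.22 in place of 0.39. Nfil3-5, a bZIP repressor of the clock output, had 6.32, 123.1 and 79.9 FPKM at 6 months and 24.4, 25.4 and 28.8 FPKM at 36 months. M6_1 was the lowest of all 12 libraries in this gene (adjusted p = 0.0618 at 6 months, limma-moderated variance ratio). Rorcb, a nuclear receptor of the clock loop, had 1.13, 14.7 and 8.41 FPKM at 6 months and 4.73 to 15.4 FPKM later. The list had no single direction in M6_1, where 11 of the 19 members were lowest and 8 highest, beside 47.8% and 33.8% of all genes. Bhlhe41, another repressor, was highest in M6_1 at 6 months, with 50.6, 20.6 and 36.9 FPKM. At 12 months it was low in M12_3, with 107, 102 and 16.6 FPKM. Nfil3 was also highest in M6_1 at 6 months, with 17.05, 8.56 and 5.515 FPKM. The hour of collection is not given, and its part in these spreads was not tested.

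Immediate early genes, which respond within minutes to handling and stress, had a median SD above that of all genes at every age. Their median SD was 0.51, 0.37, 0.37 and 0.28 at 6, 12, 24 and 36 months. Of 29 members 15, 10, 8 and 0 were wide, beside 19.6%, 10.4%, 8.01% and 9.37% of all genes. M6_1 differed most at 6 months, by a median of 0.70 from M6_2 and 0.85 from M6_3. In it 16 of the 29 were lowest, not far above the 47.8% of all genes. M6_2 and M6_3 also differed, by a median of 0.38 over the list, beside 0.19 over all genes. Dusp2, a phosphatase that switches off MAP kinases, had 15.5, 15.9 and 69.0 FPKM at 6 months, high in M6_3. Egr1, a zinc finger factor, had 14.1, 69.9 and 17.1 FPKM at 24 months, and fosab, a Fos subunit of AP-1, had 10.7, 43.6 and 15.2 FPKM there, both high in M24_2, in which 19 of the 29 members and 28.7% of all genes were highest. Heat shock genes were tighter as a group (median pooled SD 0.25, 40 genes), but their inducible members were not. Hsp70l, an inducible heat shock protein, had 79.4, 5.39 and 16.9 FPKM at 6 months, 21.2, 40.9 and 12.7 at 12 months, 14.1, 40.9 and 27.2 at 24 months and 45.64, 21.7 and 61.4 at 36 months.

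Endothelial and endocardial genes had a median SD of 0.52 at 6 months and of 0.20, 0.19 and 0.28 later. At 6 months 13 of 19 were lowest in M6_1, beside 47.8% of all genes. Klf2b, a flow-responsive endothelial factor, had 24.0, 71.5 and 69.0 FPKM at 6 months. Epicardial, fibroblast and matrix genes had odd libraries at several ages. At 6 months 16 of 23 epicardial and fibroblast genes, 20 of 34 matrix genes other than collagens and all 3 collagens were highest in M6_1. That library was highest in 33.8% of all genes. Of the matrix genes other than collagens 41.2% were wide at 6 months, beside 19.6% of all genes. At 36 months 22 of 23 epicardial and fibroblast genes and 25 of 34 matrix genes other than collagens were highest in M36_3, where 35.7% of all genes were, and at 12 months 16 of the 23 were lowest in M12_3, where 44.3% were. Col1a1a, a chain of fibrillar collagen I, had 41.1, 35.5 and 16.8 FPKM at 12 months, 38.3, 40.3 and 38.1 at 24 months and 16.6, 41.0 and 57.3 at 36 months. The 3 hearts of 24 months were alike in this gene, and the highest of 36 months exceeded the lowest 3.45-fold. A locus without a name overlaps it but is listed at 0.

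**Figure D3:**
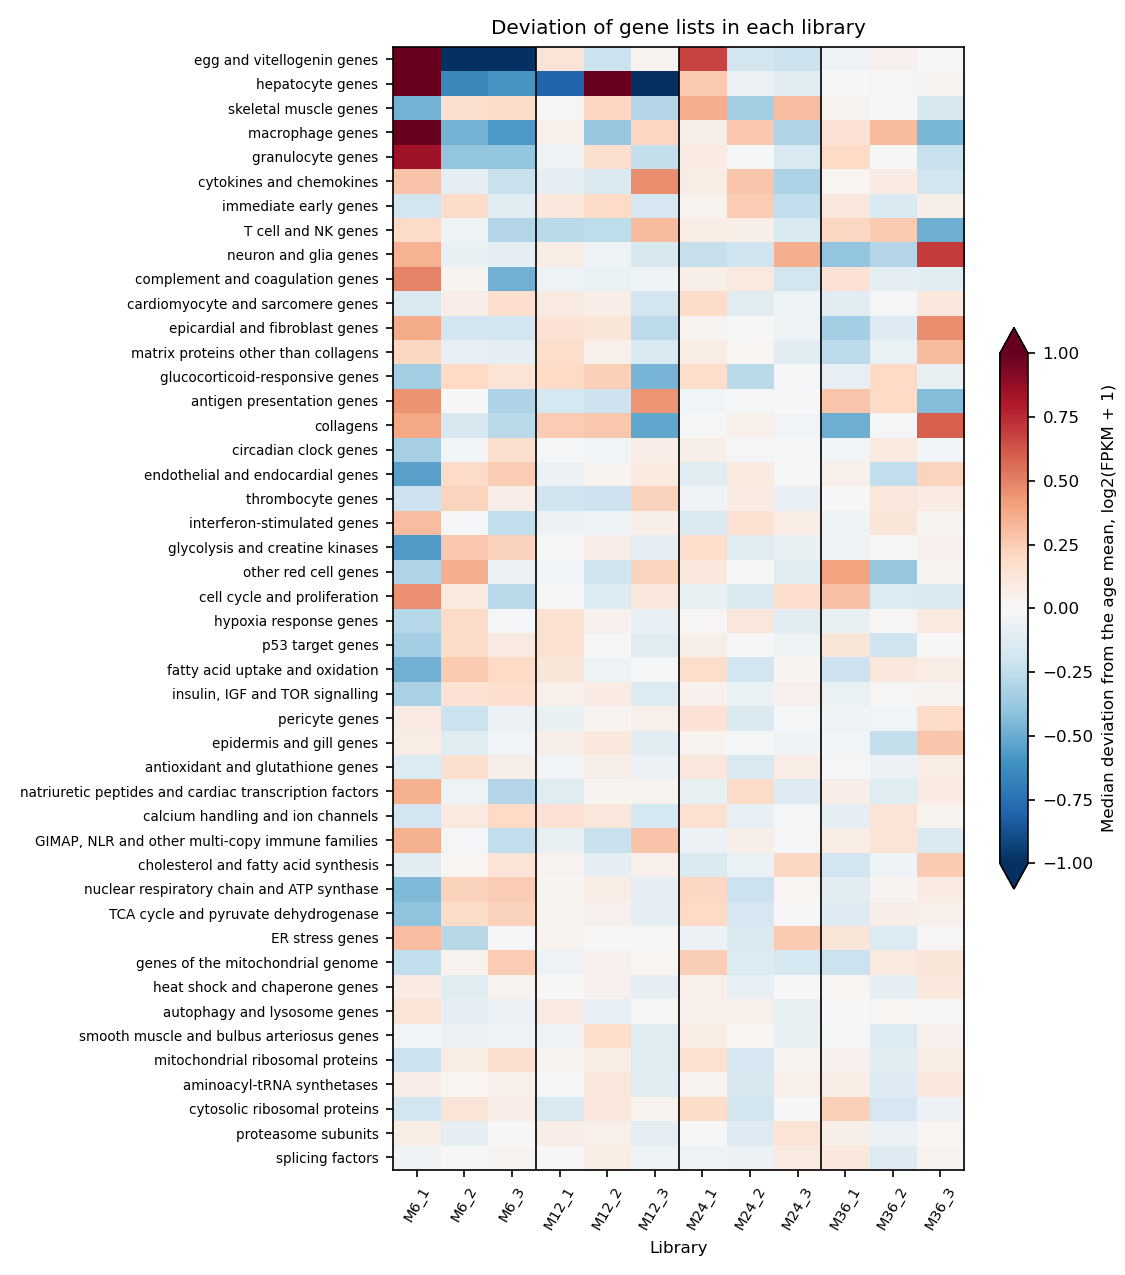
Median deviation of each gene list from the mean of its age in each of the 12 libraries, on the log2(FPKM + 1) scale, with red above and blue below the age mean, colours saturated at 1 and lists in the order of their pooled spread. M6_1 is above its age mean in macrophage (1.03) and granulocyte (0.84) genes and below it in glycolysis (-0.57) and respiratory chain (-0.44) genes.

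Genes of tissues other than the heart produced some of the widest spreads, most of them through 1 or 2 libraries. Such a gene can pass the cutoff of mean level through those libraries alone. The vitellogenins are yolk precursors that the liver of female fish secretes. Vtg2 had 214, 1.71 and 1.203 FPKM at 6 months, 3.22, 0.727 and 2.09 at 12 months, 30.6, 2.91 and 13.04 at 24 months and 0.163, 0.290 and 0.208 at 36 months. Vtg1 and vtg3 were likewise high in M6_1, at 79.8 and 52.6 FPKM, beside at most 5.39 FPKM in the other libraries. M6_1 and, far behind it, M24_1 were thus the libraries highest in vitellogenins. The summed level of the list was 394.6 FPKM in M6_1, 65.75 in M24_1 and 6.95 to 28.2 in the remaining 10.

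Liver genes were high in M6_1 and still more so in M12_2. Apoa2, an apolipoprotein of high-density lipoprotein, had 82.6, 1.06 and 2.04 FPKM at 6 months and 2.72, 251 and 5.33 FPKM at 12 months. It had 9.59, 5.55 and 3.55 FPKM at 24 months and 0 FPKM in each library of 36 months. Fabp10a, the liver fatty acid-binding protein, had 63.2, 2.29 and 7.51 FPKM at 6 months and 5.87, 258 and 15.7 FPKM at 12 months. Of the 9 measured hepatocyte genes, 8 were highest in M6_1 and 7 in M12_2, beside 33.8% and 34.7% of all genes. Apoa2 passed the cutoff of mean level mainly through M6_1 and M12_2, so such counts follow in part from the cutoff. The whole list summed to 466.5 and 1394 FPKM in M6_1 and M12_2. M36_3 followed with 350.0 FPKM, and the other 9 libraries lay between 79.9 and 168.7 FPKM. M12_2 was high in liver genes but not in vitellogenins, with vtg2 at 0.727 FPKM there.

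A lipid group stood out in M36_3, a set of genes gathered after their values were seen. Scd, the stearoyl-CoA desaturase, had 4.60, 28.8 and 385 FPKM in M36_1, M36_2 and M36_3. G0s2, an inhibitor of lipolysis, had 54.6, 105 and 1043 FPKM, and dgat2, which makes triglycerides, had 1.66, 9.51 and 96.2 FPKM. Cidec, a lipid droplet protein, had 2.43, 3.67 and 35.8 FPKM, and fabp11a, a fatty acid-binding protein, had 885, 690 and 2436 FPKM. M36_3 was the highest of the 12 libraries in all 5. Fasn, the fatty acid synthase, had 28.06 FPKM in M36_3 and at most 10.59 elsewhere, gpd1b, a glycerol-3-phosphate dehydrogenase, had 310.1 and at most 188.7, and pnpla2, a triglyceride lipase, was also highest there, with at most 5.63 in the other libraries. Plin1, adipoqa, adipoqb, pparg, lepa and lipeb, other genes of fat cells, were below 1 FPKM in every library. Further genes looked up with them were not highest in M36_3. Gpd1a had its lowest value there, 1.71 FPKM, and its highest in M12_3, 9.965 FPKM. Mgll had 31.48 FPKM in M36_3 and was highest in M24_1, at 40.65 FPKM. Lipea had 1.798 FPKM in M36_3, within 1.593 to 2.685 FPKM over the 12 libraries. Lepb was at 0 in M36_3 and highest in M6_1, at 1.291 FPKM. Leap2, an antimicrobial peptide made mainly by the liver in mammals, had 5.21, 17.99 and 252 FPKM in M36_1, M36_2 and M36_3. Leap2 accounted for most of the hepatocyte sum of M36_3, while apoa2 was at 0 there.

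Single libraries were also high in some thyroid and muscle genes. Tg, the thyroglobulin precursor of thyroid hormone, had 2.66, 0.151 and 227 FPKM at 24 months and 0.668, 0.147 and 24.2 FPKM at 36 months. At 6 months it had 44.98, 12.4 and 4.64 FPKM and at 12 months 9.49, 0.965 and 14.4 FPKM. Slc5a5, the iodide transporter of the thyroid, was looked up after tg was seen and had 0.374, 0 and 17.97 FPKM at 24 months and 0.0999, 0.0410 and 4.11 FPKM at 36 months. Both genes were highest in M24_3. Other thyroid genes looked up with it were low or went another way. Dio1, a deiodinase, was at 13.23 FPKM in M24_3, its lowest value, and slc26a4, an anion transporter, was at 0.17. Nkx2.4b, a homeobox factor, was highest there at 1.46 FPKM, close to 1.32 in M6_1, and tshr, duox, pax2a and pax8 were below 1 FPKM in every library. Actc1b, a muscle actin, had 0.571, 66.0 and 1.31 FPKM at 36 months and at most 2.94 FPKM at other ages, and mylpfa, a myosin light chain of fast skeletal muscle also looked up afterwards, had 0.356, 41.3 and 0.831 FPKM, high in the same library. The fast myosin heavy chain genes myha and myhz1.1 and the troponin tnnt3a were at most 0.417 FPKM in every library. The locus without a name that overlaps myhz1.1 had 3.26 FPKM in M36_2 and at most 0.69 elsewhere. Of the 5 measured skeletal muscle genes, however, only 1 was highest in M36_2 and 3 were highest in M36_1. The median deviation of that list in M36_2 was -0.002. Ctrb1, a chymotrypsinogen of the exocrine pancreas, was scattered over many libraries, with 36.0, 1.01 and 6.20 FPKM at 24 months and 5.28, 59.0 and 2.95 FPKM at 36 months. Leaving out the lists of other tissues left the widest age and its ratio to the others unchanged at 1.38. That step still tested 7025 genes at 6 months in place of 7060, so a median over all genes could hardly have moved. The part that tissue carried along at dissection had in single genes was not tested.

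**Figure D4:**
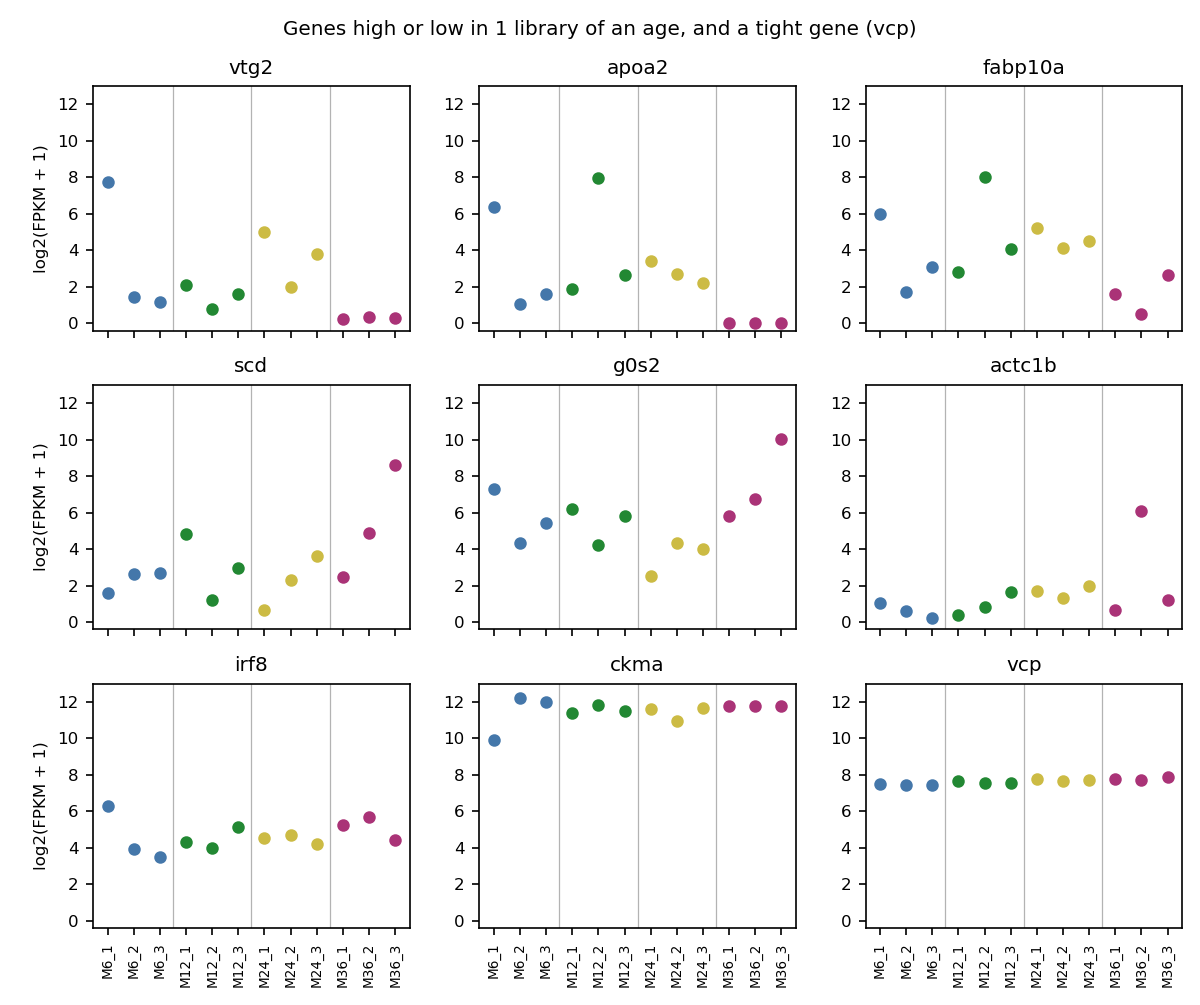
Level of 9 genes in each of the 12 libraries as log2(FPKM + 1), 1 point per library, coloured by age. Vtg2 and irf8 are highest in M6_1, apoa2 and fabp10a in M12_2, scd and g0s2 in M36_3 and actc1b in M36_2, ckma is lowest in M6_1, and vcp stays between 175 and 239 FPKM throughout.

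At the tight end, splicing factors had a median SD of 0.12 to 0.15 at the 4 ages, not far above their counting SD of 0.07, and proteasome subunits of 0.13 to 0.16. Among the 5 tightest genes with a mean of at least 50 FPKM were ndfip1, an adaptor of ubiquitin ligases, snrnp27, a spliceosome protein, vcp, an ATPase of protein quality control, and rab2a, a GTPase of vesicle traffic. Vcp had 182, 176 and 175 FPKM at 6 months, 203, 189 and 188 at 12 months, 216, 203 and 210 at 24 months and 221, 210 and 239 at 36 months. Rab2a had 110, 110 and 114 FPKM at 6 months. These genes were chosen for a small pooled SD, in which M6_1 is included, so its closeness to its age mates in them follows from the choice.

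Cytosolic ribosomal proteins were tight when pooled over the ages, but not at every age, and they moved as a block. Their median SD was 0.19, 0.15, 0.19 and 0.22 at 6, 12, 24 and 36 months. Over all genes it was 0.25, 0.18, 0.18 and 0.19, so the list was wider than the typical gene at 36 months and slightly so at 24 months. At 36 months 53 of 57 were highest in M36_1, where 37.9% of all genes were. At 24 months 51 were highest in M24_1 (36.9% of all genes) and 55 lowest in M24_2 (38.7%). At 12 months 43 were highest in M12_2 (34.7%) and 54 lowest in M12_1 (26.6%), and at 6 months 52 were lowest in M6_1 (47.8%). The steps were small, the largest median deviation being 0.24 in M36_1. Their counting SD was about 0.01, so shifts of this size were far above counting error. The FPKM of a gene depends on all others in its library, and such shared shifts also move with the scaling.

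Among proteasome subunits, 4 members encoded beside the class I genes on chromosome 19 were wide. Psmb8a, a catalytic subunit of the immunoproteasome, had 40.5, 21.4 and 7.17 FPKM at 6 months, 26.0, 32.8 and 29.9 at 12 months, 43.9, 16.8 and 17.3 at 24 months and 47.4, 35.7 and 6.06 at 36 months. Psmb9a had 44.0, 24.7 and 4.71 FPKM at 36 months, psmb12 had 58.0, 34.9 and 13.4 FPKM, and psmb13a had 42.2, 24.9 and 8.47 FPKM. All of them were lowest in M36_3 at 36 months and in M6_3 at 6 months. They lie together between 7186913 and 7225660 on chromosome 19 (GRCz11), next to the class I gene mhc1uba at 7153929 to 7182175. Psmb8a and psmb13a overlap there on the same strand, so reads may have been split between them. Psmb12 and psmb9a lie within both on the other strand, and whether the counting used strand is not given in the sources used here.

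A small set of genes was nearly absent from some hearts and abundant in others of the same age. Genes below 1 FPKM in a library and at 20 FPKM or more in another library of the same age, a criterion set after values had been seen, numbered 26 at 6 months (0.368%), 21 at 12 months (0.297%), 17 at 24 months (0.241%) and 14 at 36 months (0.198%). They made 56 genes in all (0.793%), of which 29 were loci without a name and 23 protein-coding. At 1 age this was seen in 38 genes, at 2 ages in 15, at 3 ages in 2 and at all 4 ages in 1.

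Myoglobin, the oxygen-binding protein of muscle, had the widest spread of all named protein-coding genes at 6 and 36 months. Mb had 103, 204 and 0.348 FPKM at 6 months, 374, 88.7 and 42.1 at 12 months, 169, 159 and 0.347 at 24 months and 170, 0.899 and 137 at 36 months. It was near 0 in M6_3, M24_3 and M36_2, with 5, 4 and 12 reads, and at 42.1 FPKM or more in the other 9. The highest library exceeded the lowest 587-fold at 6 months, 486-fold at 24 months and 190-fold at 36 months. M6_1 was not the odd library here. The locus without a name that overlaps mb on its strand had 0.58 to 1.28 FPKM over the 12 libraries. In M6_3, M24_3 and M36_2 it had 0.58, 0.722 and 0.624 FPKM. Why mb was near 0 in these libraries was not tested. Mb lies on chromosome 1 from 54460292 to 54467434 (GRCz11).

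Genes of antigen presentation formed a further part of this set. Mhc1uba, a class I gene, had 775, 92.2 and 160 FPKM at 6 months, 10.5, 425 and 0.344 at 12 months, 756, 261 and 120 at 24 months and 3.09, 80.1 and 68.2 at 36 months. Its levels thus spanned 1236-fold between the hearts of 12 months, where the lowest rested on 10 reads. Mhc2dab, a class II beta chain on chromosome 8, had 271, 174 and 226 FPKM at 6 months and 265, 245 and 216 at 24 months, but 15.8, 192 and 633 at 12 months and 87.5, 0.468 and 0.242 at 36 months. M36_2 and M36_3 had 6 reads and 3 reads of it. M12_1 was low in both genes, whereas M36_2 and M36_3 were low in mhc2dab and M12_3 and M36_1 were lowest in mhc1uba. The class I and class II genes belong to families of related genes that differ between haplotypes. Reads of a diverged allele may not align to the reference gene, so low values are uncertain, and genotype was not tested.

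On chromosome 8 a trio of neighbouring genes was present or absent together. The gene zgc:103700, from 35357841 to 35396205 on the minus strand (GRCz11), had 86.4, 0 and 0 FPKM at 6 months, 37.5, 0.0687 and 29.9 at 12 months, 84.1, 64.2 and 0 at 24 months and 54.3, 19.9 and 0 at 36 months. Its neighbours, listed under clone names from 35352004 to 35355502 and from 35356692 to 35358488, were below 1 FPKM in the same 5 libraries, M6_2, M6_3, M12_2, M24_3 and M36_3. In the other 7 they had 4.45 to 39.1 and 5.31 to 30.2 FPKM. This gene, zgc:103700, was the only one of the 56 that met the criterion at all 4 ages.

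F13a1a.1, a coagulation factor XIII A chain gene, had 25.5, 78.8 and 12.4 FPKM at 6 months, 37.1, 0.417 and 2.45 at 12 months, 29.5, 36.5 and 60.4 at 24 months and 7.42, 0.315 and 35.7 at 36 months. It was near 0 in M12_2 and M36_2, of which only M36_2 was also low in mb. Smim1, which encodes a small membrane protein that carries a blood group antigen in humans and is listed as a processed transcript, had 18.4, 0.182 and 66.2 FPKM at 6 months and 0, 14.1 and 31.9 at 24 months. Myl9b, a regulatory myosin light chain of smooth muscle, had 30.6, 0.913 and 12.2 FPKM at 24 months and 0.490, 24.4 and 7.60 at 36 months, beside 30.1, 34.1 and 35.3 at 6 months. The libraries at the low end overlapped in part. M36_2 was below 1 FPKM in mb, mhc2dab and f13a1a.1, M6_3 and M24_3 in mb and zgc:103700, M12_2 in zgc:103700 and f13a1a.1, M36_3 in mhc2dab and zgc:103700 and M6_2 in zgc:103700 and smim1. No library was below 1 FPKM in all of mb, mhc1uba, mhc2dab, zgc:103700, f13a1a.1, smim1 and myl9b.

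**Figure D5:**
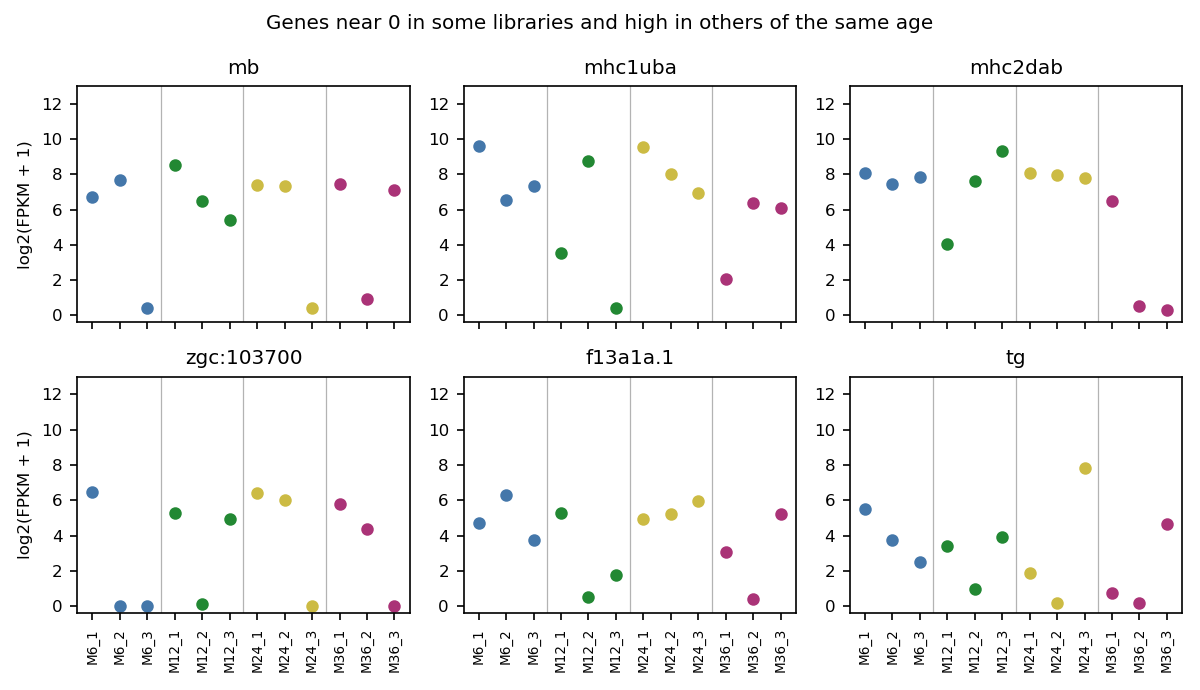
Level of mb, mhc1uba, mhc2dab, zgc:103700, f13a1a.1 and tg in each of the 12 libraries as log2(FPKM + 1), 1 point per library, coloured by age. Points near 0 fall in M6_3, M24_3 and M36_2 for mb and in M6_2, M6_3, M12_2, M24_3 and M36_3 for zgc:103700.

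Hearts of 6 months still differed in some genes once M6_1 was set aside. The largest differences between M6_2 and M6_3, in that order, were in mb, in mafb, a transcription factor of macrophages and other cells, with 1.41 and 22.9 FPKM, in igfbp2a, a binding protein for insulin-like growth factors, with 1.18 and 15.0 FPKM, in ccdc125, with 0.564 and 9.23 FPKM, and in f13a1a.1, with 78.8 and 12.4 FPKM. Pdk2b, a kinase that restrains pyruvate dehydrogenase, had 335, 2266 and 392 FPKM at 6 months, so that M6_2 and not M6_1 was the odd library. Genes that varied at every age, besides mb, tg, mhc1uba and grn1, were nceh1a, a cholesterol ester hydrolase, with a smallest SD of 1.01, and g0s2, with a smallest SD of 0.97. Both were highest in M36_3.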

How the data were processed

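Gene expression in 12 zebrafish heart libraries was deposited by the authors in 4 tables with 50640 genes each, as FPKM per library. Per the submitters' processing notes, CASAVA 1.8 and HISAT2 2.0.5 were used with the GRCz11 build. The tool that counted reads is not given in the sources used here. Multiplied by gene length, 100.0% of the values were whole reads within 0.01 read, which gave the reads per gene and the counting SD quoted. Among the 12 columns 0 were identical.

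Values were used as log2(FPKM + 1), for genes with a mean of at least 5 FPKM. The SD over the 3 libraries of an age was computed per gene. For the test, the variance within an age (2 degrees of freedom) was divided by the variance within the other ages (6 degrees of freedom) moderated with squeezeVar of limma 3.58.1 in R 4.3.3, with a trend on mean level and two-sided p-values adjusted by Benjamini-Hochberg. Genes whose variance was 0 could not be tested, which left 7057 to 7060. An SD of 2 libraries was multiplied by 1.23 to compare it with an SD of 3. The test was tried on simulated data, where 0 of 7062 genes were called when none had been changed, and 2 and 10 unchanged genes when 200 others had a raised SD. The FPKM scaling was kept as deposited.

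The gene lists and their members were chosen with earlier results of these data known, and therefore received counts and medians and no test. They held 1517 symbols, of which 48 matched a synonym and 98 nothing, giving 2211 genes. Genes were named by rule: the 6 widest at each age, the 6 with the largest smallest SD, the 5 that differed most between M6_2 and M6_3, the 5 tightest at a mean of at least 50 FPKM, up to 4 of the widest members per list, and those past the test. Clone names were left out of the first of these rules. One gene that these rules name is not reported here. Gapdh, mpeg1.1, fosab, smim1, slc5a5, mylpfa, cidec, fabp11a and the trio on chromosome 8 were named after their values were seen, as were the other lipid, thyroid and muscle genes looked up afterwards. Libraries were not treated as paired by replicate number. Over 18 pairs of equal number the correlation of deviations ran from -0.20 to 0.23 and 4 exceeded 0.1. For replicate 3 it was 0.23, 0.12 and 0.12 among 6, 24 and 36 months, and -0.13, -0.09 and -0.20 between these ages and 12 months. Pairs of unequal number were not computed, so a link between libraries of equal number was not tested. Alternatives covered the pseudocount, the filter, the scaling, the kind of gene, counting error, the test and each library left out. Other steps used Python 3.11.15, scipy 1.17.1, matplotlib 3.10.9, pandas 2.3.3 and numpy 2.4.6.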

Additional observations from a re-analysis of the deposited data

How the results depend on the processing

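In 27 of 28 alternatives 6 months was the widest age, with a median SD 1.201 to 1.65 times the mean of the other ages. Without M6_1 it was the narrowest, at 0.89 times, while the other ages kept all their libraries. The ranges over the libraries left out singly were 0.16 to 0.30 for the median SD at 6 months, 0.15 to 0.21 at 12, 0.18 to 0.18 at 24 and 0.19 to 0.20 at 36 months. The share of wide genes ranged from 11.19% to 31.0%, 8.057% to 19.03%, 8.015% to 13.75% and 9.374% to 14.88% at these ages, where a SD of 2 libraries exceeds 0.5 more easily. The distance of 36 minus 6 months ranged from -0.15 to 0.01, and its direction turned without M6_1 (0.0062). Where a library of 6 or 36 months was left out, the distances of the 2 ages were not on a common scale. The number of genes past the variance test ranged from 0 to 32, 0 to 5, 0 to 1 and 0 to 0.

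A pseudocount of 5 gave a median SD of 0.1931 at 6 months and wide shares of 12.04%, 5.976%, 4.248% and 5.055% at the 4 ages, and no filter gave a median of 0.1875 at 6 months. A minimum of 1 FPKM gave a median of 0.229 at 12 months and shares of 17.91%, 13.67% and 15.52% at 12, 24 and 36 months. An SD of at least 1 was reached by 4.46%, 2.549%, 1.713% and 2.209% of genes. For 6 months, the genes past the variance test numbered 0 at a threshold of 0.01, 1 with the plain ratio or a minimum of 5 FPKM in each age, 5 without trend, 6 at a minimum of 1 FPKM, 7 with a pseudocount of 5, a minimum of 20 FPKM or loci without a name left out, and 11 for protein-coding genes only. Without a filter they numbered 176, 85, 55 and 90 at the 4 ages. At 12 months 1 gene passed after quantile normalization. At 24 months 1 passed with the plain ratio, a pseudocount of 0.1, a minimum of 20 FPKM, a minimum of 5 FPKM in each age, an equal sum per library or mitochondrial and haemoglobin genes removed, 2 without trend, 3 with a pseudocount of 5 and 7 at a minimum of 1 FPKM. At 36 months 1 passed with a pseudocount of 5. The cause of these changes was not tested. Leaving out loci without a name together with the genes they overlap, and leaving out the lists of other tissues, were chosen after seeing the data, and the former gave 7 genes at 6 months.

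With the replicate number as a block, the median SD was 0.24, 0.20, 0.19 and 0.20 at the 4 ages and 0 genes passed at each. The labels do not say that libraries of equal number belong together. Subtracting the counting variance was not run for the variance test and the library distance. Shifts under alternatives that kept all libraries were set against the SD of the same value over the settings with a single library left out. Of 723 list medians 487 moved by less than that SD, as did 2415 of 2846 values of named genes. Labels that do not say whether libraries are single animals limit every statement, and 3 libraries per age limit any test of spread.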

Other observations

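Further groups also had an odd library. Endoplasmic reticulum stress genes, which help to fold secreted proteins, were highest in M6_1 in 19 of 24 members, beside 33.8% of all genes. Chac1, which degrades glutathione and is induced by this stress in mammals, was an exception with 729.8, 1322 and 1371 FPKM at 6 months. Hsp90aa1.1, a cytosolic chaperone of muscle, had 207, 17.5 and 32.4 FPKM in M6_1, M6_2 and M6_3 and at most 43.1 FPKM later. Txn, a thioredoxin, had 83.9, 11.4 and 6.75 FPKM at 6 months and 17.4 to 56.1 FPKM later.

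Red cell genes other than haemoglobins, 16 in all, were lowest in M6_1 in 14, beside 47.8% of all genes, and highest in M36_1 in 15, beside 37.9%. The haemoglobin gene hbba2 took another order, with 5590, 2128 and 2576 FPKM at 6 months, highest in M6_1. Genes of insulin and insulin-like growth factor signalling (23) were lowest in M6_1 in 16 and in M12_3 in 20, beside 47.8% and 44.3% of all genes. Igfbp1a, a binding protein of these factors that responds to fasting and hypoxia, had 16.6, 110 and 58.9 FPKM at 6 months and 112, 78.8 and 31.2 FPKM at 12 months.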
